A study of Rattus norvegicus with 6 samples.

Results

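The granins and the enzymes that process neuropeptides were followed as 10 genes among the 56748 genes of the deposited table. They were chosen by name: the granin family genes Chga, Chgb, Scg2, Scg3, Scg5 and Vgf, and the enzyme genes Pcsk1, Pcsk2, Cpe and Pam. Each symbol had 1 row, and all 10 genes passed the filter on low counts, with 161 to 11413 reads per library. The libraries are from primary neurons of the dorsal root ganglion (DRG), the sensory ganglion beside the spinal cord, labelled as rat. The cells had received extracellular vesicles, small membrane particles that cells release, from innervated muscle (EVMu, 3 libraries) or from acutely denervated muscle (EVadMu, 3 libraries). Vesicle exposure was thus common to both groups, and no group without vesicles is among the samples, so a lower level in EVadMu cannot be told apart from a higher level in EVMu. The labels give no age, strain, dose or exposure time and do not say whether replicates are separate cultures, so the p-values reflect the spread among the sequenced libraries alone, and that spread may be technical.

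Sensory neurons store peptides such as calcitonin gene-related peptide and substance P in dense-core vesicles. Granins are acidic cargo proteins that aggregate in the trans-Golgi network, help these vesicles to form, and are themselves cut into shorter peptides. Inside the vesicle, the convertases made from Pcsk1 and Pcsk2 cut precursors after pairs of basic residues, the carboxypeptidase made from Cpe trims the exposed basic residues, and the monooxygenase made from Pam turns a terminal glycine into the amide that many sensory peptides need for activity.

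The 10 genes did not move as a block. The convertase gene Pcsk1 had the largest change among them, 3.72-fold lower in EVadMu, and Pcsk2 and Pam were 1.93-fold and 1.82-fold lower. The granin genes Scg2, Vgf and Scg3 were lower by smaller amounts, while Chgb and Scg5 were 1.36-fold and 1.48-fold higher. When levels were scaled to neuronal markers, Scg2 and Vgf no longer passed, and Scg3 passed as higher. Chga and Cpe did not pass the test. By the quasi-likelihood test of edgeR, Benjamini-Hochberg adjusted over all 16993 tested genes, 2 of the 10 were called higher and 6 lower at an adjusted p under 0.05. Over all tested genes 39.2% were called higher and 40.8% lower, 80% in all, so the share of members called does not set them apart. The median log2 fold change was -0.46 over the 10 genes and -0.02 over all tested genes. A call of at least 2-fold was made for 1 of the 10, Pcsk1, against 17.6% of all tested genes higher and 23.5% lower by that much. The CPM of the groups did not overlap for 9 of the 10 genes, and for 80.7% of all tested genes.

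The cultures differed in much more than these genes, and the summed levels of cell type markers frame every value below. The pan-neuronal markers summed to 7157 to 7421 CPM (read counts scaled to library size with TMM factors, which correct for library composition) in EVMu and 4579 to 4704 CPM in EVadMu. Of the 17 neuronal markers 12 fell, 2 rose and 3 did not pass, and the neuronal tubulin gene Tubb3 went from 1217 ± 14.6 to 512 ± 6.00 CPM (SD, n = 3). Fibroblast markers summed to 6533 to 6608 CPM in EVMu and 305 to 323 CPM in EVadMu, with 10 of 10 lower. Schwann and satellite glia markers went from 4639 to 4857 down to 1108 to 1125 CPM with 9 of 10 lower, and endothelial and mural markers from 759 to 791 down to 117 to 123 CPM with 8 of 8 lower. Macrophage and leukocyte markers summed to 33.7 to 39.8 and 132 to 138 CPM, where Cd68 alone rose and the other 6 tested fell. Of the adrenal and neuroendocrine markers, Th and Slc18a1 rose, and Pnmt had no reads in any library. No marker of the first 5 lists was at 0 in a whole group. The labelled neurons were thus detected in both groups beside other cells, and fewer neurons or less of a transcript per neuron cannot be told apart in bulk RNA. Cpe and Pam are also made by cells other than neurons, and the part of the marker shifts in their values was not tested. Nor was it tested for the pathway genes described below, so their changes cannot be assigned to neurons. A second fit therefore set the summed neuronal markers equal in all libraries. It added 0.64 to the median log2 fold change of all genes, and its values are given as neuron-scaled. The 17 neuronal markers did not move together, with log2 fold changes from -2.63 to 0.29 by TMM factors. Neuron-scaled, 11 of them were still called lower and 5 higher. A neuron-scaled value is thus relative to the marker sum and is not a level per neuron.

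Among the granins, Scg2, the precursor of secretoneurin, stood at 226, 235 and 239 CPM in EVMu replicates 1 to 3 and at 147, 145 and 155 CPM in EVadMu replicates 1 to 3. Every EVadMu library was below every EVMu library, and the log2 fold change was -0.65 ± 0.038 (SE; adjusted p = 3.81e-17), but only -0.01 when neuron-scaled (adjusted p = 0.859). Vgf, a nerve growth factor-inducible gene whose protein is cut into several secreted peptides, stood at 426, 423 and 436 CPM in EVMu and at 295, 296 and 278 CPM in EVadMu. The groups were again apart, with a log2 fold change of -0.56 ± 0.033 (adjusted p = 1.99e-17) that became 0.08 when neuron-scaled (adjusted p = 0.0558). Scg3, whose protein binds chromogranin A and anchors it to the vesicle membrane, was at 206, 198 and 207 CPM in EVMu and at 152, 164 and 162 CPM in EVadMu. Its log2 fold change was -0.35 ± 0.039 (adjusted p = 4.18e-10) and turned to 0.29 when neuron-scaled (adjusted p = 4.64e-08). The direction of Scg3 therefore depends on the scaling, and relative to the summed neuronal markers neither Scg2 nor Vgf passed.

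The ratio of Scg2 to Vgf counts was 0.529, 0.557 and 0.548 in EVMu and 0.499, 0.489 and 0.556 in EVadMu, a difference of -0.08 on the log2 scale, and the groups overlapped (exact two-sided permutation test, p = 0.3). The promoters of both genes are shown because, of the 8 members whose promoters were searched, these carried the full cAMP response element, the letters TGACGTCA, a palindrome that factors of the CREB and ATF families bind. Sequences are from the RefSeq promoter table of rat build GRCr8, which held 8 of the 10 genes (not Chga and Pcsk1), and both genes lie on the minus strand. The stretches run 5′ to 3′ on the gene's strand, at chr9:88256931-88257040 for Scg2 and chr12:25277052-25277161 for Vgf, and the element is in capitals.
Scg2: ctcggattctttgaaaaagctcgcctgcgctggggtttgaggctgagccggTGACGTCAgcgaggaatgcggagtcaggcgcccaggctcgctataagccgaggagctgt
Vgf: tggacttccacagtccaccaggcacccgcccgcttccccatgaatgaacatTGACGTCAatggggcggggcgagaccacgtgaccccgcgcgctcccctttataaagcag
The element began 123 bases before the annotated start in Scg2 and 90 bases before it in Vgf. In the 250 bases before the start, on both strands, 1.59% of all 33469 promoters in the table held TGACGTCA, and 1.89% of those of protein-coding genes. The shorter core TGACG, which each full element contains on both strands, was found in 7 of the 8 promoters and in 18.2% of all (20.4% of protein-coding genes). Those 7 included genes that fell (Scg2, Scg3, Vgf, Pcsk2, Pam), a gene that rose (Scg5) and Cpe. The C/EBP-ATF element TGATGNAA was found in none of the 8 and in 3.4% of all promoters. Base composition was not matched, and a match in letters is a description of the sequence only.

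Chgb and Scg5 went the other way. Chgb, the gene of chromogranin B, was at 20.04, 24.6 and 27.0 CPM in EVMu and at 30.5, 35.7 and 31.4 CPM in EVadMu. The groups did not overlap although the EVMu libraries varied by 14.9% (coefficient of variation), and the log2 fold change was 0.44 ± 0.089 (adjusted p = 3.86e-05). Scg5, which encodes 7B2, the chaperone that the convertase of Pcsk2 needs to mature, was at 17.5, 14.1 and 15.4 CPM in EVMu and at 20.8, 26.6 and 22.1 CPM in EVadMu. All EVadMu libraries were higher, with a log2 fold change of 0.56 ± 0.10 (adjusted p = 8.55e-06). Neuron-scaled, the log2 fold changes were 1.08 for Chgb and 1.20 for Scg5, where that scaling by itself added 0.64 to the median of all genes. Scg5 had 218 to 423 reads per library, the lowest counts among the granins together with Chgb.

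Chga, the gene of chromogranin A, was at 43.0, 42.5 and 49.2 CPM in EVMu and at 41.2, 40.6 and 42.4 CPM in EVadMu. The groups only just failed to overlap, EVMu replicate 3 stood above the other 5 libraries, and the log2 fold change of -0.12 ± 0.065 did not pass (adjusted p = 0.0915; 95% interval from the SE, -0.25 to 0.01). Neuron-scaled it was 0.52 and passed (adjusted p = 1.82e-09). Chga also passed as lower without EVMu replicate 1 (-0.16, adjusted p = 0.0461) or replicate 2 (-0.17, adjusted p = 0.0373), but without EVMu replicate 3 it was at -0.052 and did not pass (adjusted p = 0.503).

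**Figure D1:**
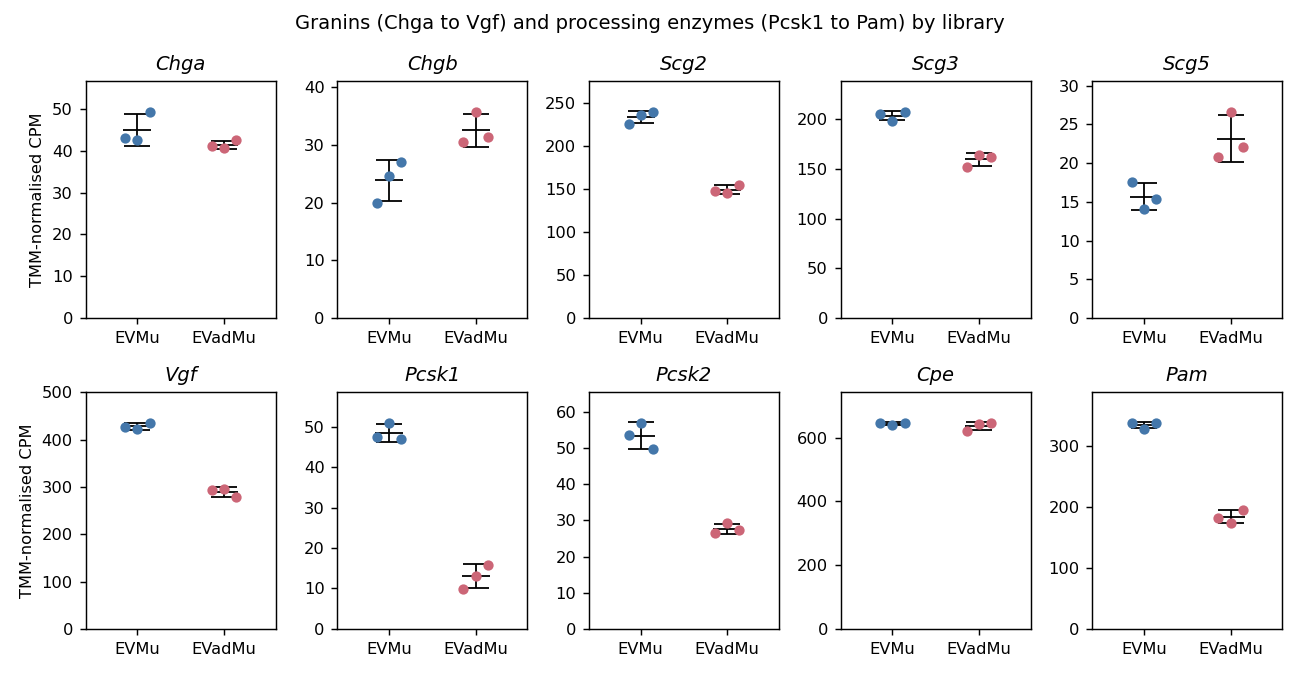
TMM-normalised CPM (vertical axis, from 0 and set for each gene) of the 10 genes in the 3 EVMu (blue) and 3 EVadMu (red) libraries; points are libraries, and the black bars are the mean and SD. Pcsk1 drops from between 47.0 and 51.0 to between 9.98 and 15.9 CPM, Chgb and Scg5 are higher in EVadMu, and Cpe overlaps between the groups.

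Among the enzymes, Pcsk1 was at 47.3, 51.0 and 47.0 CPM in EVMu and at 9.98, 13.2 and 15.9 CPM in EVadMu. The lowest EVMu library was well above the highest EVadMu library, and the log2 fold change was -1.90 ± 0.096 (adjusted p = 4.67e-19), or -1.26 when neuron-scaled. Of all tested genes, 11.4% had a lower log2 fold change. The EVadMu libraries varied by 22.6%, where counting alone would give 6.94%, the widest spread of any member within a group. Pcsk2 was at 53.7, 57.0 and 49.6 CPM in EVMu and at 26.4, 29.2 and 27.2 CPM in EVadMu. The groups were far apart, with a log2 fold change of -0.95 ± 0.068 (adjusted p = 8.57e-15), or -0.31 when neuron-scaled (adjusted p = 0.000174). The antisense rows Pcsk2os1 and Pcsk2os2 held 91 and 12 reads over all libraries, against 426 to 879 per library for Pcsk2. The strand setting of the counting is not given, so reads of the sense and antisense genes cannot be told apart.

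Pam, the amidating enzyme, was at 339, 329 and 337 CPM in EVMu and at 183, 174 and 195 CPM in EVadMu. Every EVadMu library was lower, with a log2 fold change of -0.86 ± 0.037 (adjusted p = 4.48e-21), or -0.22 when neuron-scaled (adjusted p = 4.09e-06). Cpe was at 645, 639 and 647 CPM in EVMu and at 622, 642 and 644 CPM in EVadMu. The groups overlapped, and the log2 fold change of -0.02 ± 0.028 did not pass (adjusted p = 0.592; 95% interval -0.07 to 0.04), whereas it was 0.62 when neuron-scaled (adjusted p = 1.08e-21). The 3 enzyme genes Pcsk1, Pcsk2 and Pam thus fell under both scalings. The median log2 fold change of the 17 neuronal markers was itself -0.36 when neuron-scaled. Neuron-scaled, the falls of Pcsk2 and Pam did not exceed the median fall of those markers, and only that of Pcsk1 did. The same held by TMM factors, but that is not a separate check. The neuronal scaling adds a near-constant to every gene, so it can hardly change the order of genes against the marker median. Neuron-scaled, 1 of the 4 enzyme genes (Cpe) and 4 of the 6 granin genes were called higher, where 59.7% of all tested genes were.

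**Figure D2:**
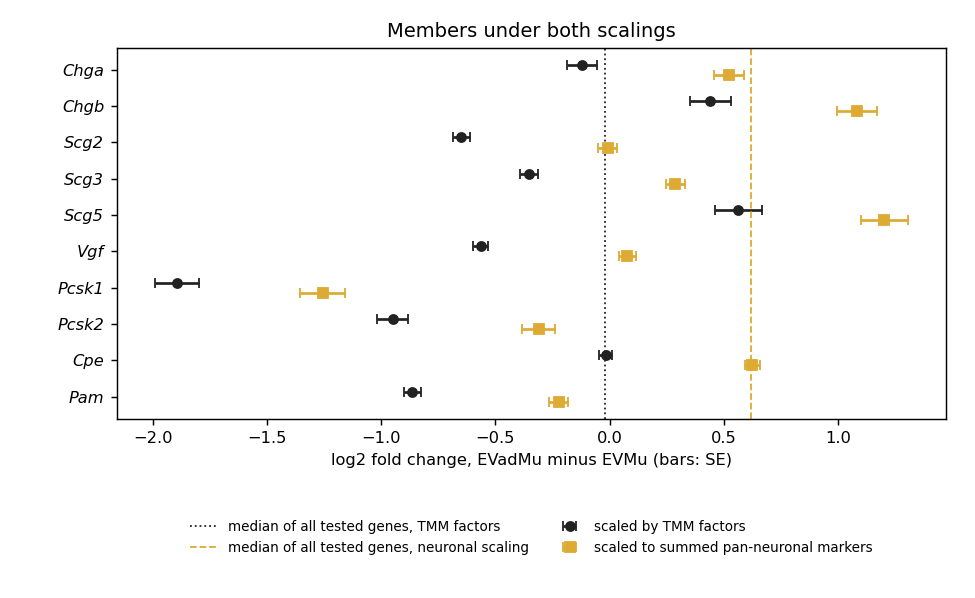
Log2 fold change, EVadMu minus EVMu, with SE for each gene, by TMM factors (black circles) and scaled to the summed pan-neuronal markers (yellow squares); vertical lines are the medians of all tested genes, -0.02 and 0.62. Pcsk1, Pcsk2 and Pam stay below 0 under both, Chgb and Scg5 above 0, while Chga, Scg3, Vgf and Cpe change sign.

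Ratios of counts within a library do not depend on any scaling, so 9 were compared by an exact two-sided permutation test. With 3 libraries against 3 the smallest p it can give is 0.1, which is 0.129 after Benjamini-Hochberg adjustment over the 9, so none could pass. The ratio of Pcsk1 to Pcsk2 was 0.882, 0.895 and 0.946 in EVMu and 0.378, 0.452 and 0.584 in EVadMu, lower in all 3 EVadMu libraries (p = 0.1, exact). The ratio of Pcsk2 to its chaperone gene Scg5 went from 3.44 ± 0.52 to 1.20 ± 0.089 (SD, n = 3; exact p = 0.1), the result of a fall in one and a rise in the other. The ratio of Pcsk1 to Pcsk1n, the gene of the convertase inhibitor proSAAS, went from 0.237 ± 0.0086 to 0.0665 ± 0.018 (exact p = 0.1). Pcsk1n itself was at 204 ± 1.99 and 198 ± 10.3 CPM and did not pass (adjusted p = 0.268 in edgeR's test).

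Among the other ratios, Pam to Cpe went from 0.520 ± 0.0056 to 0.289 ± 0.016 and Chga to Chgb from 1.90 ± 0.22 to 1.28 ± 0.12 (exact p = 0.1 for each, n = 3), without overlap of the groups. Scg3 to Chga went from 4.55 ± 0.30 to 3.86 ± 0.18 (exact p = 0.1), also without overlap. Calca, the precursor gene of calcitonin gene-related peptide, which Pam amidates, stood at 1.31 ± 0.021 reads per Pam read in EVMu and 1.21 ± 0.080 in EVadMu, and the groups overlapped (exact p = 0.3). Relative to Cpe, Calca went from 0.680 ± 0.0043 to 0.348 ± 0.0042 (exact p = 0.1). The log2 fold changes behind these ratios were -0.98 for Calca, -0.86 for Pam and -0.02 for Cpe.

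**Figure D3:**
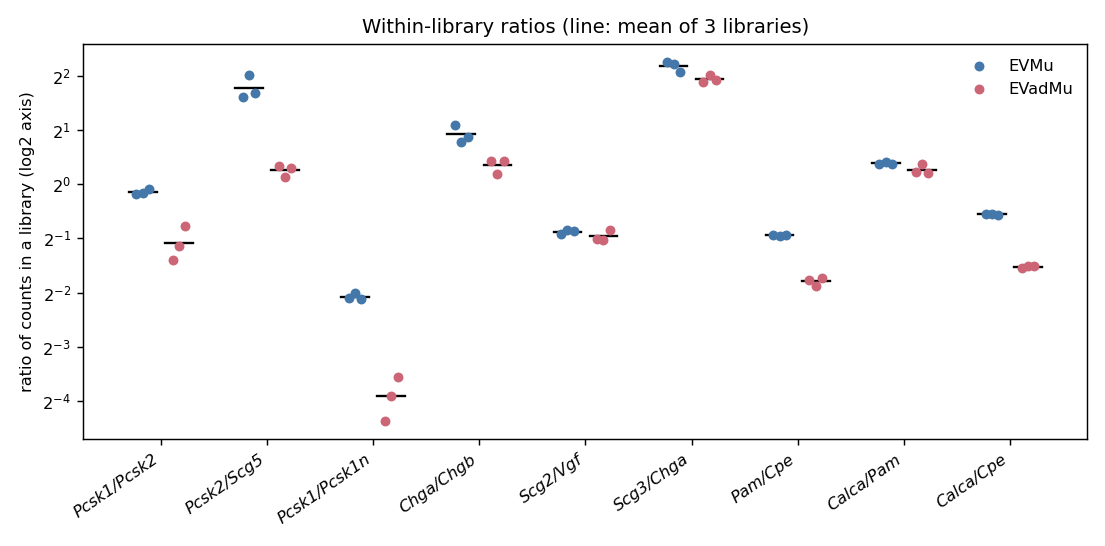
Ratio of read counts of gene pairs within each library (vertical axis, log2 scale) in EVMu (blue) and EVadMu (red); points are libraries and lines are means. Of the 9 ratios, 7 do not overlap between the groups, the widest gap being that of Pcsk1 to Pcsk1n. Scg2 to Vgf and Calca to Pam overlap. The CPM of 80.7% of all tested genes did not overlap, and no share was computed for other gene pairs, so the count does not set these ratios apart.

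The rest of the peptide pathway was described with 7 lists holding 74 other genes, of which 68 were tested. Of these 18 were higher and 37 lower (39.2% and 40.8% over all tested genes), with a median log2 fold change of -0.37, and 33 were higher and 25 lower when neuron-scaled, where all tested genes had 59.7% and 23.9%. Among 8 other convertases and related genes 1 rose and 4 fell (median -0.26), against 5 and 1 when neuron-scaled (median 0.38). Pcsk6 fell from 8.08 ± 0.87 to 2.05 ± 0.64 CPM, while Furin, the ubiquitous convertase of the Golgi, and Pcsk7 had log2 fold changes of -0.33 and -0.51 that turned to 0.31 and 0.13 when neuron-scaled. Pcsk4, known from germ cells, rose from 1.33 ± 0.26 to 4.47 ± 0.38 CPM. Of 6 tested carboxypeptidase relatives of Cpe, 2 rose and 3 fell (median -0.46), against 3 and 3 when neuron-scaled (median 0.19). Cpd, the trans-Golgi carboxypeptidase, fell from 277 ± 2.22 to 125 ± 3.75 CPM (log2 fold change -1.14 ± 0.037, adjusted p = 8.47e-25). Cpxm1 and Cpxm2 fell by 1.18 and 1.71 on the log2 scale, and Aebp1 and Cpn1 rose by 0.23 and 1.05, Cpn1 from under 1 CPM. Cpxm2 was also low, at 1.12 ± 0.38 CPM in EVMu and 0.33 ± 0.075 CPM in EVadMu. The groups overlapped for Cpn1, with 1.55, 0.31 and 2.02 CPM in EVadMu, and it only just passed edgeR's test (adjusted p = 0.0455).

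Genes that modify peptide ends or supply copper, which the Pam enzyme requires, had 4 of 8 higher and 2 lower (median 0.10), against 7 and 1 when neuron-scaled (median 0.74). The copper importer gene Slc31a1 rose from 64.6 ± 0.66 to 113.9 ± 4.41 CPM (log2 fold change 0.82 ± 0.048, adjusted p = 2.57e-17). A link to the fall of Pam was not tested. The copper pump gene Atp7a and the copper chaperone gene Atox1 rose by 0.27 and 0.18, and Qpct, which forms the pyroglutamate end of some peptides, rose by 0.74. Tpst1, which sulfates tyrosines of granins and other secreted proteins, fell by 1.51, and Cyb561, which passes electrons into the vesicle for the Pam enzyme, fell by 0.39 but was at 0.25 when neuron-scaled.

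Of 17 tested genes of dense-core vesicle assembly and release, 5 rose and 9 fell (median -0.32), but 10 rose and 6 fell when neuron-scaled (median 0.32). The calcium sensor genes Syt9 and Syt7 fell from 68.6 ± 2.87 to 14.2 ± 0.36 and from 117 ± 4.63 to 35.8 ± 1.63 CPM. The vesicle priming gene Cadps fell from 204 ± 0.64 to 80.3 ± 3.51 CPM, whereas its paralog Cadps2 rose from 8.25 ± 0.72 to 13.7 ± 1.32 CPM. Ccdc186 and Hid1, which act in vesicle maturation, rose by 1.18 and 0.16 on the log2 scale, Ica1 by 0.63 and Dtnbp1 by 0.49. Among 12 peptidases that break down released peptides, 3 rose and 8 fell (median -0.76), but 5 rose and 5 fell when neuron-scaled (median -0.12). The endothelin-converting enzyme gene Ece1, the neprilysin gene Mme and Lnpep fell by 1.07, 1.53 and 0.74 on the log2 scale, where Lnpep was at -0.10 when neuron-scaled, and Thop1, Ace and Prep rose by 0.81, 0.63 and 0.29.

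Of 10 tested precursor genes whose product is amidated, 1 rose and 7 fell (median -1.11), against 1 and 5 when neuron-scaled (median -0.47). The log2 fold changes were -3.31 ± 0.094 for Calcb, -2.10 ± 0.040 for Adcyap1, -1.58 ± 0.090 for Gal and -0.98 ± 0.033 for Calca, and Nmb rose by 0.33. Of 7 other precursors 2 rose and 4 fell (median -0.99), also 2 and 4 when neuron-scaled (median -0.35). Among them were Nts, Penk and Bdnf with -2.77, -3.85 and -0.99, while Nppb and Nucb2 rose by 3.90 and 0.58. Nppb stood at only 0.65 ± 0.28 CPM in EVMu, and Penk at only 0.96 ± 0.48 CPM in EVadMu.

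**Figure D4:**
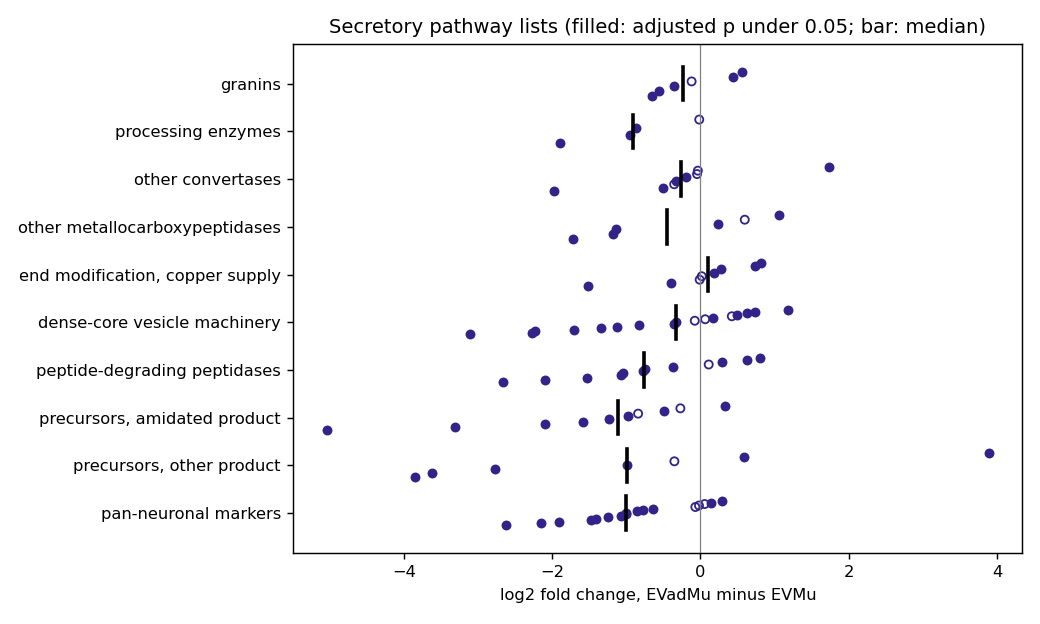
Log2 fold change, EVadMu minus EVMu, by TMM factors for each tested gene of the members, the 7 pathway lists and the pan-neuronal markers; filled points passed an adjusted p of 0.05, open points did not, and bars are medians. The medians run from -1.11 for amidated precursors to 0.10 for end modification and copper supply, and every list with more than 4 genes holds points on both sides of 0.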

How the data were processed

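The deposited table holds whole-number counts of reads per gene that the authors did not normalise. Per the submitters' processing notes, the tools were featureCounts, HISAT2, SAMtools and CASAVA 1.8 and the build was mouse mm39. The identifiers are mouse Ensembl genes although the samples are labelled rat. Which species describes the cells was not tested, and reads lost to sequence differences may vary between genes. Library totals were 14853115 to 17019877 counts. The analysis used edgeR 4.0.16 in R 4.3.3 (default expression filter with minimum count 10 and minimum total 15, TMM factors, quasi-likelihood F-test, Benjamini-Hochberg over 16993 genes, threshold 0.05). The biological coefficient of variation was 4.07%, and fits were tested on simulated data in which 200 genes changed. Far more genes were called in the real libraries, so that simulation does not test the fit under so broad a shift. DESeq2 1.42.0 and limma 3.58.1 served as alternatives. Ratios used a pseudocount of 0.5 in the test, and the printed ratios are of raw counts. Within a group, paired libraries had 2.10 to 3.13 times the variance that counting noise gives, and none was treated as a copy.

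The members, lists, motifs and tests were chosen with earlier results of these data known. Named genes are the members, the up to 4 called genes of each pathway list with the smallest p, called genes against their list's majority, and leading markers. Slc18a1, Pnmt, Pcsk1n, Atp7a, Atox1 and the antisense rows were named for their role or after their values were seen. Transcript lengths were not used, so levels of different genes are not ranked.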

Additional observations from a re-analysis of the deposited data

How the results depend on the processing

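Scaling decided most of what changed. With the summed pan-neuronal markers set equal, 5 members were called higher and 3 lower, 33 pathway genes were called higher, and 10148 of all genes were called higher and 4067 lower. This scaling adds a near-constant to every gene by its construction. The log2 fold change then turned to 0.52 for Chga, 0.29 for Scg3, 0.077 for Vgf and 0.62 for Cpe, and was -0.0082 for Scg2. Vgf and Scg2 no longer passed. Upper-quartile factors gave called falls for Chga (-0.17) and Cpe (-0.069), as did library totals without factors (-0.23 and -0.13), which moved the median of all genes by -0.11. Without a filter on low counts Chga passed at -0.16. Leaving out each library in turn gave -0.17 (without EVMu replicate 2) to -0.052 (without EVMu replicate 3) for Chga, 2 members called higher each time and 6 to 7 lower. The cause of the calls of Chga was not tested. The other settings tried (RLE factors, a stricter filter with 20 counts in 3 libraries and a mean of 1 CPM or more, DESeq2, limma-voom) called 2 members higher and 6 lower.

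With the replicate block, 2 members were called higher and 6 lower, and 6557 and 6852 of all genes. Libraries of the same number did not deviate together (correlations -0.01, -0.0037 and -0.01). Libraries within a group were already close, with correlations of at least 0.989. The check therefore cannot tell whether libraries of the same number share a culture or preparation, and the labels do not say.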
